A study of Mus musculus with 2 samples.

Results

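The genes described here encode the proteins of the cytosolic ribosome, the particle that translates messenger RNA outside mitochondria. They were chosen by symbol (Rpl, Rps, Rplp0 to Rplp2 and Rpsa, with the letter and number endings of the canonical genes and their paralogs), and each had to have at least 1 transcript annotated as protein_coding. Of 90 matching symbols, 84 met both conditions, out of 55536 annotated genes. They comprised 52 genes of the large subunit and 32 of the small subunit. The 6 symbols without a protein_coding transcript (Rps4l, Rps12l1, Rpl32l, Rpl6l, Rps3a2 and Rps3a3) were all annotated as pseudogenes and were left out. Fau, which encodes a ribosomal protein fused to a ubiquitin-like domain, falls outside the symbols used.

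The data were total RNA-seq of hippocampus from male B6CASTF1/J mice, a first-generation cross of C57BL/6J with CAST/EiJ, aged 18 to 20 months. The study had 1 group of 2 libraries, each made from 300 ng of RNA with ERCC spike-in RNA added. The labels give the libraries separate biosamples and replicate numbers but 1 shared donor record, and do not say that the tissue came from separate animals, so the spread between them may be technical. There was no second condition, and a sign-flip test of 2 values cannot give a p below 0.5, so values are given per library with mean and SD and no p. The gene tables held 34563482 expected counts in replicate 1 and 32370292 in replicate 2. Neuronal, astrocyte and oligodendrocyte markers were detected at all of the listed genes in both libraries, whereas 7 choroid plexus markers summed to 37.3 TPM (a transcript level corrected for length and depth) in replicate 1, against 700 TPM in replicate 2, with 4 of 7 detected. The part of that difference in the results below was not tested.

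A ribosome joins one copy of nearly every ribosomal protein to the ribosomal RNAs, so the products of these genes are needed in similar amounts. Their messenger RNAs are short, abundant and evenly expressed across tissues, and typically begin with a run of pyrimidines, the 5′ terminal oligopyrimidine tract, through which mTOR signalling and LARP1 control their translation. The genome also carries many processed pseudogenes, intron-less copies made from these messenger RNAs, and reads that match a gene and its copy equally well have to be divided between them.

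The transcript starts are shown first, because that tract is the sequence feature best known in this family. RefSeq promoter entries (build GRCm38.p6) matched 64 of the 84 genes. Windows of 55 bases are printed for 6 genes with a long pyrimidine run at the start and 2 without one. Each runs 5′ to 3′ on the gene's strand, with 40 bases before the annotated start and 15 from the start base on, and capitals mark the longest pyrimidine run that touches the 5 bases on either side of the start. Rpl7a lies at chr2:26910767-26910821 on the plus strand and Rpl35 at chr2:39005117-39005171 on the minus strand. Rps10 lies at chr17:27635230-27635284 on the minus strand and Rplp2 at chr7:141447611-141447665 on the plus strand. The windows of Rps6 (chr4:86857353-86857407) and Rps27 (chr3:90213634-90213688) are on the minus strand. Those of Rpl41 (chr10:128549154-128549208) and Rps3a1 (chr3:86142654-86142708) are also on the minus strand. Their longest run is 3 bases at Rpl41 and 1 base at Rps3a1.
Rpl7a: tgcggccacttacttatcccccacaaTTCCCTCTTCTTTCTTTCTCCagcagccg
Rpl35: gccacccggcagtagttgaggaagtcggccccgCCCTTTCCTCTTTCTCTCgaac
Rps10: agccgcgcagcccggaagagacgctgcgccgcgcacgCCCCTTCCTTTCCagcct
Rplp2: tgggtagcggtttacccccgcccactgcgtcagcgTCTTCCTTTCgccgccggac
Rps6: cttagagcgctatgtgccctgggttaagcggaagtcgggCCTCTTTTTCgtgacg
Rps27: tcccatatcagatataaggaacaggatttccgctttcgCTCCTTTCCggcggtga
Rpl41: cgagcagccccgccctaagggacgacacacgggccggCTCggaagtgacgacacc
Rps3a1: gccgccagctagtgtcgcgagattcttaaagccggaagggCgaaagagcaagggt

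A run of at least 6 pyrimidines touched the start in 30 of 64 ribosomal protein promoters (46.9%), against 19.9% of 9901 promoters of protein-coding genes detected in the hippocampus and 20.1% of all 27025 promoters. For a run of at least 8 the shares were 32.8%, 9.76% and 9.30% in the same order. The letters CTCTTTC, sought on the gene's strand from 50 bases before the start to the end of the window, were present in 17.2% of ribosomal protein promoters, 1.19% of detected genes and 1.33% of all promoters. This motif is itself all pyrimidine, so it overlaps with the run. CCGGAAG, a core of sites bound by ETS-family factors, was sought on both strands of the 300 bases and was found in 39.1% of ribosomal protein promoters, 17.9% of detected genes and 9.12% of all promoters. AAGATGG, the core of YY1 sites, was found on either strand in 14.1%, 7.25% and 6.48%. The palindromic consensus of NRF1 sites was found on either strand in 1 of the 64 promoters (1.56%), 2.11% of detected genes and 0.977% of all promoters. A TATAAA between 40 and 10 bases before the start was present in 1 ribosomal protein gene of 64, Rpl22l1, and in 1.01% of detected genes. These are matches of letters to an annotated start, not measured start or binding sites.

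**Figure D1:**
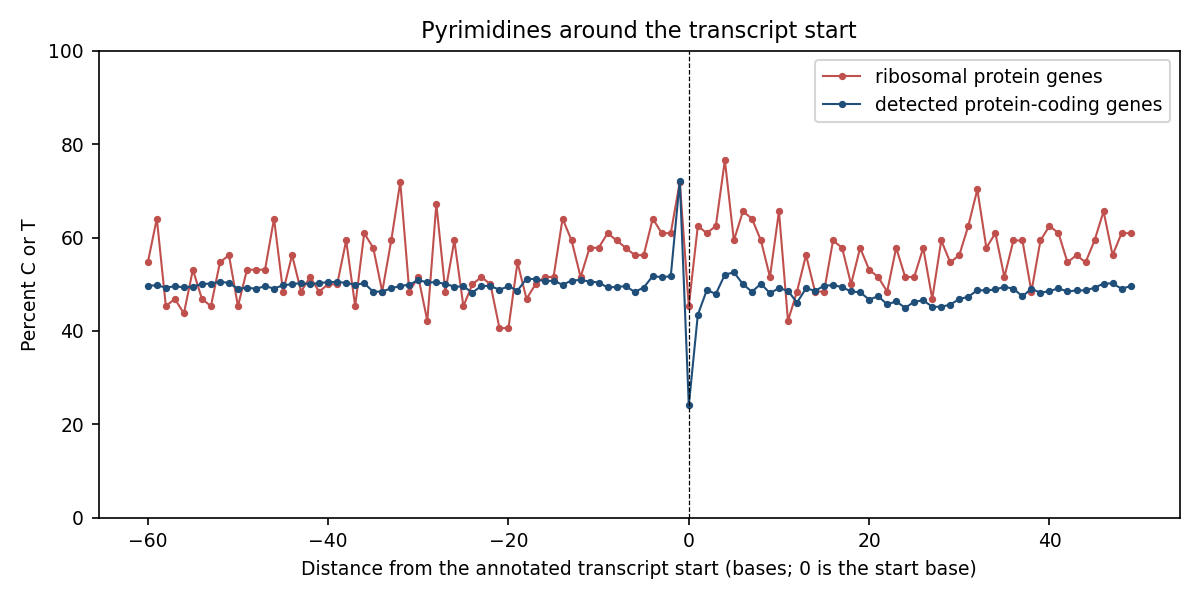
Percent of promoters with C or T at each base from 60 bases before to 49 bases after the annotated start (0 is the start base), for 64 ribosomal protein genes and 9901 detected protein-coding genes. The ribosomal protein line lies above the other at 46 of the 50 bases from the start on, and it is less smooth because it rests on 64 promoters.

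Nearly every ribosomal protein gene was expressed. Detection was set at 1 TPM or more in each library, and 81 of 84 genes met it, against 57.5% of all 22015 nuclear protein-coding genes. The 3 that fell short were the paralogs Rpl3l, Rpl10l and Rpl39l. The median over the 84 genes was 165.8 TPM in replicate 1 and 172.7 TPM in replicate 2 (169 ± 4.88, SD, n = 2), against 14.4 and 14.7 TPM over detected protein-coding genes, a fold of 11.6 ± 0.160. The median ribosomal protein gene stood above 97.2% of detected protein-coding genes. In total the 84 genes held 3.78% and 3.73% of the TPM of nuclear protein-coding genes and 0.789% and 0.776% of their counts, and 0.611% and 0.616% of all gene counts. In bulk tissue, more cells of a type and more RNA per cell cannot be told apart.

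Genes of other large complexes were lower. The 78 mitochondrial ribosomal protein genes had medians of 20.1 and 22.5 TPM, in replicates 1 and 2, and none reached the ribosomal protein median, the highest being at 61.4 TPM. Proteasome subunit genes (39 genes) had medians of 44.7 and 47.5 TPM. A list of 29 other genes of translation, such as elongation and initiation factors, had medians of 99.98 and 102 TPM and all 29 were detected. In that list Eef1a1, the elongation factor that delivers aminoacyl-tRNA, was highest at 1265 and 1316 TPM, above every ribosomal protein gene. The fusion gene Fau, at 303 and 313 TPM, lay within the range of the ribosomal protein genes.

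Leaving out the 7 paralogs, the 77 canonical genes were not equal in level. They ranged from 16.0 TPM to 669 TPM in the gene table, a 41.8-fold span, and from 86.9 TPM to 1505 TPM, a 17.3-fold span, in a second quantification of the same libraries described further on. In the gene table the quartiles were 120 and 245 TPM and 61 of 77 were within 2-fold of their median. The Spearman correlation between the 2 quantifications over the 77 genes was 0.60, given as a description. The SD of log2 TPM across these genes was 0.91 in the gene table, against 1.81 across detected protein-coding genes. Levels tended to be higher for shorter messages: the Spearman correlation of mean TPM with effective length was -0.45 over the 77 genes, given as a description because genes of 1 library share its depth and length correction.

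**Figure D2:**
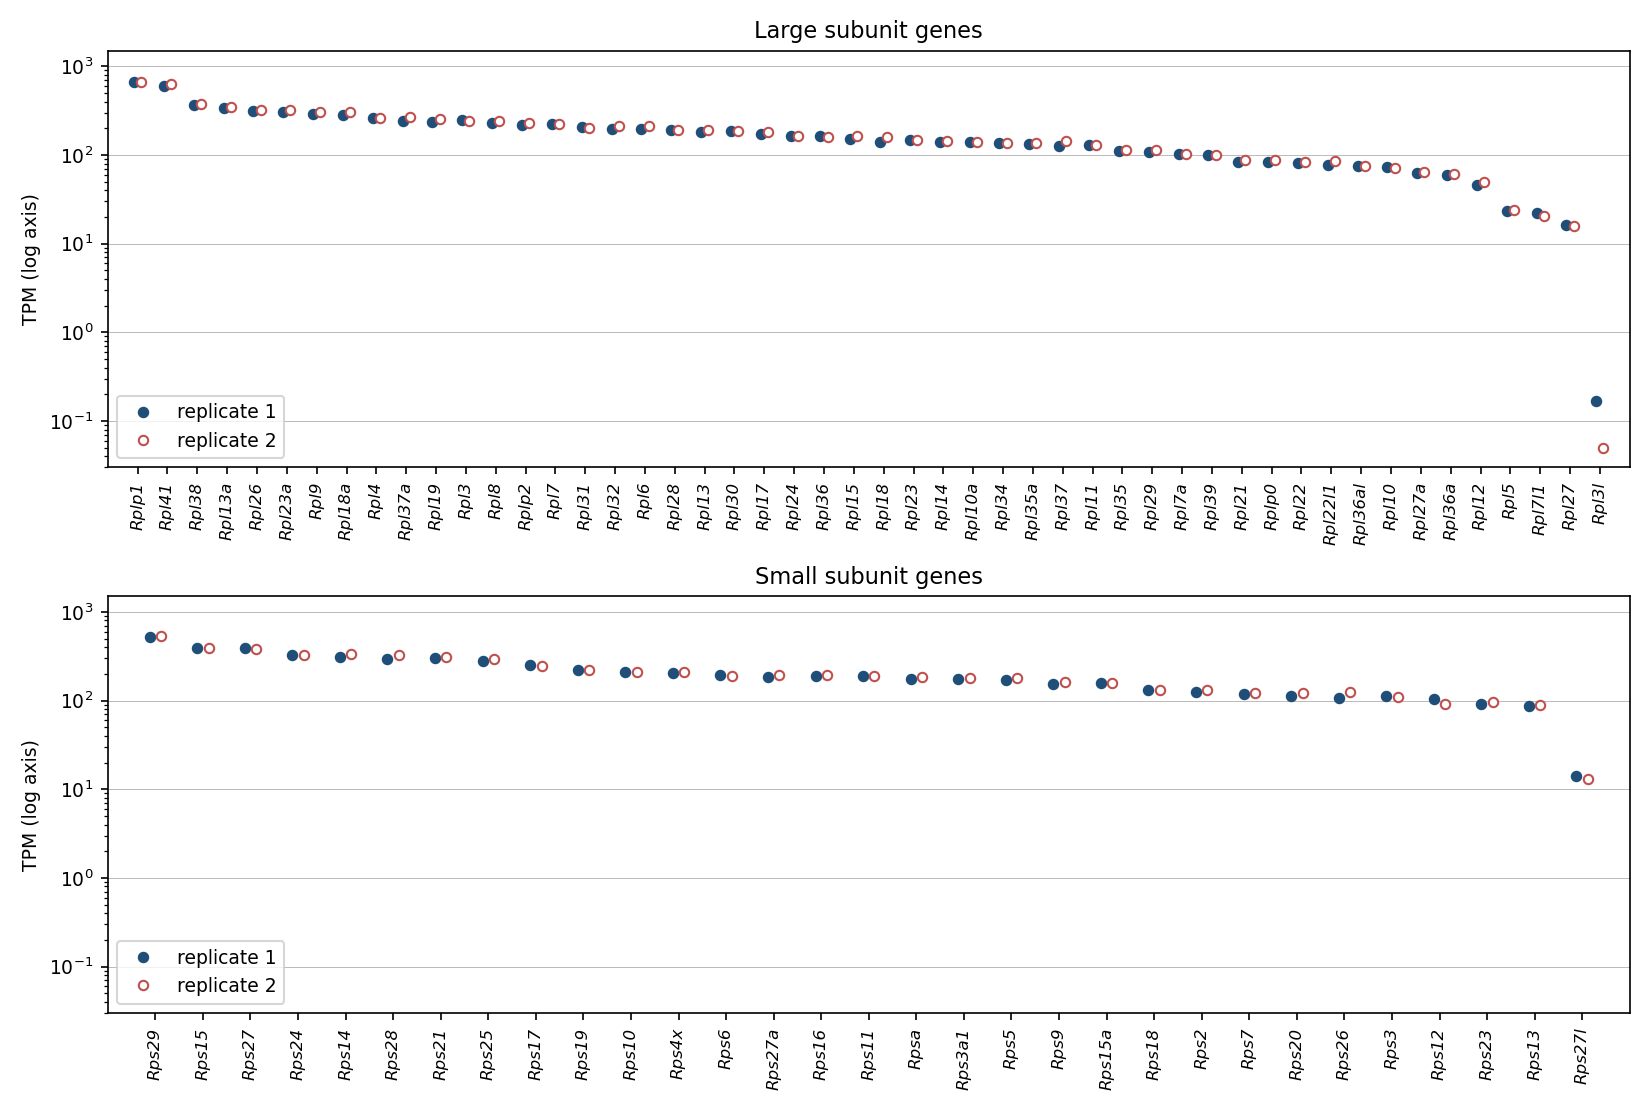
TPM of the ribosomal protein genes, 1 small-subunit gene left out, in replicate 1 (filled) and replicate 2 (open) on a log axis, ordered by mean TPM within the large and the small subunit. Points of the 2 replicates nearly coincide for detected genes, and Rpl10l and Rpl39l are not drawn because both libraries were at 0.

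The acidic stalk of the large subunit, which recruits translation factors, is built from Rplp0, Rplp1 and Rplp2. Rplp1 had the highest level of all 84 genes in the gene table, with 664 TPM in replicate 1 against 674 TPM in replicate 2. Its partner Rplp2 had 220 and 232 TPM, and Rplp0, the protein that anchors both, had 82.7 and 88.2 TPM. The order Rplp1, Rplp2, Rplp0 was the same in both libraries and both quantifications. The gap between Rplp2 and Rplp0 was small in the second quantification, where Rplp2 had 251 and 264 TPM and Rplp0 had 214 and 231 TPM. In the ribosome the P1 and P2 proteins are present in more than one copy, unlike the other ribosomal proteins.

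Behind Rplp1 in the gene table, the highest large-subunit genes were Rpl41, which encodes the shortest protein of the ribosome, at 604 and 639 TPM, Rpl38 at 365 and 379 TPM, Rpl13a at 341 and 351 TPM, and Rpl26 at 316 and 322 TPM. In the small subunit the highest were Rps29, a short zinc-binding protein, at 518 and 538 TPM, Rps15 at 393 and 396 TPM, Rps27, another zinc-binding protein, at 396 and 383 TPM, Rps24 at 322 and 326 TPM, and Rps14 at 313 and 332 TPM. Rps15 and Rps27 swapped places between the libraries and did not differ beyond their spread. The large subunit genes had medians of 145 and 154 TPM, in replicates 1 and 2, and the small subunit genes 188 and 188.2 TPM. The log2 ratio of the large to the small subunit median was -0.33 ± 0.061, but it was -0.03 in the second quantification and -0.21 without the paralogs.

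At the low end of the detected canonical genes stood Rpl27 (16.1 TPM in replicate 1 and 15.9 TPM in replicate 2), Rpl5 (23.3 and 23.97 TPM), Rpl12 (45.7 and 49.2 TPM), Rpl36a (59.5 and 60.4 TPM), Rpl27a (62.5 and 64.3 TPM) and Rpl10 (72.9 and 71.9 TPM). Rpl5 binds the 5S ribosomal RNA and, with Rpl11, restrains Mdm2. Rpl12 sits at the base of the stalk, and Rpl10 joins the large subunit late in its maturation. Sequence copies elsewhere in the genome held between 48.3% (Rpl36a) and 84.2% (Rpl27) of the counts of gene and copies together at these 6 genes. The paralogs Rps27l, Rpl7l1, Rpl36al and Rpl22l1 made up the rest of the 10 lowest detected genes.

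The tissue-specific paralogs were at or near 0. Rpl3l, which replaces Rpl3 in heart and skeletal muscle, had 4 counts in replicate 1 and 1 count in replicate 2, while Rpl3 had 6541 and 5911 counts. The TPM ratio of Rpl3l to Rpl3 was 6.9e-04 in replicate 1 (95% exact interval 1.9e-04 to 0.0018, for counting error only) and 2.1e-04 in replicate 2 (5.2e-06 to 0.0012). Rpl10l, a single-exon paralog expressed in testis, had 0 counts in both libraries, and its parent Rpl10 was at least 563-fold higher in replicate 1 and 511-fold higher in replicate 2 when Rpl10l was set to the floor of 3 counts per library. Rpl39l, also expressed in testis, had 0 counts too, and Rpl39 was at least 481-fold and 448-fold higher against the same floor. A floor of 3 counts corresponded to 0.129 and 0.141 TPM for Rpl10l and to 0.207 and 0.225 TPM for Rpl39l. Testis germ cell markers, as a list, were likewise undetected (0 of 4 at a TPM of 1, with Tnp1 and Prm1 at 0). Of the 4 muscle markers 3 were detected, and the 4 summed to 13.6 and 14.4 TPM.

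Of the broadly expressed paralogs, Rps27l, a p53-induced counterpart of Rps27, had 14.2 TPM in replicate 1 and 13.0 TPM in replicate 2, a ratio to Rps27 of 0.0357 and 0.0340. Rpl7l1 had 22.1 and 20.6 TPM, a ratio to Rpl7 of 0.0989 and 0.0909. Both paralogs were therefore below their canonical gene in both libraries. Rpl22l1 had 77.6 and 85.0 TPM and Rpl22 had 80.9 and 82.6 TPM, so the ratio was 0.959 in replicate 1 and 1.03 in replicate 2, and in the gene table the levels of this pair were not separated by the spread between libraries. In the second quantification the ratio was 1.17 and 1.26, with Rpl22l1 above Rpl22 in both libraries. These are whole-gene levels. In the gene table protein_coding transcripts held 13.1% and 21.5% of the Rpl22l1 TPM, and the processed_transcript Rpl22l1-209 held 84.8% and 74.8%. The protein_coding Rpl22-201 held 64.8% and 61.3% of the Rpl22 TPM. In the second quantification processed_transcript entries led for both genes, Rpl22-205 with 61.5% and 60.7% and Rpl22l1-202 with 49.4% and 51.8%. Per read the pair did differ, with a ratio of CPM (counts scaled to library size, with no length correction) of 0.443 and 0.466, since the Rpl22 transcripts have a larger effective length.

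For Rpl36al and Rpl36a the order of whole-gene TPM turned in both libraries with the quantification. In the gene table Rpl36al had 75.6 TPM in replicate 1 and 76.1 TPM in replicate 2, and Rpl36a had 59.5 and 60.4 TPM, a ratio of 1.27 and 1.26. In the second quantification the ratio was 0.726 and 0.725. Rpl36al counts were close in both (829 and 738 in the second quantification, 823 and 760 in the gene table), whereas Rpl36a had 1238 and 1207 counts in the second quantification, against 651 and 608 in the gene table. Of those 1238 and 1207 counts, 1096 and 1108 were in Rpl36a-206, a transcript annotated as retained_intron. The protein_coding Rpl36a-201 had 41.3 and 30.5 TPM in the second quantification, below the protein_coding Rpl36al-203 at 87.8 and 83.9 TPM. The order therefore did not turn for protein_coding transcripts. The pseudogene Rpl36a-ps2, identical to the whole Rpl36a coding sequence, had 0 and 0 counts in the second quantification, against 588 and 569 in the gene table. The 2 coding sequences are both 318 bases long (106 codons with the stop) and 87.7% identical. A stretch of 60 bases, from base 223 to base 282 of the coding sequence, is shown for both, with the 3 bases that differ in capitals. Rpl36al lies at chr12:69182731-69184083 on the minus strand and Rpl36a at chrX:134585654-134588062 on the plus strand (mm10, GENCODE M21).
Rpl36al: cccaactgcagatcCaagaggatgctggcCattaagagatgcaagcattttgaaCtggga
Rpl36a: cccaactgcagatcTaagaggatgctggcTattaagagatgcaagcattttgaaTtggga

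The other pairs were less alike, at 85.0% identical bases for Rpl39l and Rpl39, 84.7% for Rpl10l and Rpl10, 73.2% for Rpl3l and Rpl3, 68.2% for Rpl22l1 and Rpl22, 61.0% for Rps27l and Rps27 and 54.0% for Rpl7l1 and Rpl7, counting gaps as differences. The longest annotated coding sequence was used, so unequal lengths lower these values. Rps27l (315 bases) and Rps27 (252 bases) had 192 identical bases, 60 different bases and 63 gap bases.

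The 2 libraries gave nearly the same levels. Of the 84 genes, 80 had a mean of at least 5 CPM, and 0 of these differed by a log2 ratio of 0.32 or more after TMM scaling. The background was 2% of 11417 genes at 5 CPM or more (1.22% higher and 0.78% lower in replicate 1). Among 80 genes, a count of 0 lies near that background. By counting error alone, with no adjustment for 80 genes, the interval excluded 0 for 10 genes, 6 higher and 4 lower in replicate 1. The intervals were computed for ribosomal protein genes only, so no such count is given for other genes. Another measure of departure from counting error, the chi-square per degree of freedom, was 1.67 over 81 ribosomal protein genes. It was 7.80 over 19816 genes. The median log2 ratio of replicate 1 to replicate 2 over the 80 genes was 0.01 and its SD 0.060. Over all genes at 5 CPM or more these were -0.01 and 0.23, with single genes from -9.48 to 10.18. The median coefficient of variation of TPM was 2.20% over detected ribosomal protein genes and 4.81% over detected protein-coding genes. In these comparisons the sets were not matched in depth: the ribosomal protein median CPM was 2.74-fold that of detected protein-coding genes.

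The ratio was highest for Rps12, with 1228 counts in replicate 1 and 1008 in replicate 2 (log2 ratio 0.21, 95% interval 0.09 to 0.33). Next came Rpl27 (0.13), Rps18 (0.12), Rps6, the substrate of S6 kinase (0.11), and Rps27 (0.10). It was lowest for Rps26, a protein of the messenger RNA exit channel, with a log2 ratio of -0.17 (-0.28 to -0.06), then Rpl22l1 (-0.11), Rpl37a (-0.10), Rpl37 (-0.10) and Rplp0 (-0.09). When the counts of sequence copies were added to each gene, Rps12 had 2703 and 2522 counts and a log2 ratio of 0.03, and the SD over the 80 genes was 0.041. That sum was chosen after the values were seen, and 0 of 80 reached 0.32 with it either. One copy, Rps12l1, had 0 counts in replicate 1 and 115 in replicate 2. Under ERCC scaling, which moved the median of all genes to 0.17, the median of the ribosomal protein genes was 0.19 and Rps12 passed the 0.32 threshold at 0.39.

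Many reads of these genes could come from a pseudogene as well. A search of the GENCODE M21 transcripts with each coding sequence found copies (at least 90% identity over at least 80% of the coding sequence) for 76 of the 84 genes, with a median of 8 copies per gene and a maximum of 77, for Rpl21. Of 967 copy genes, 946 were annotated as pseudogenes of some type, and 57 of the 84 genes had at least 1 copy at 99% identity or more. In the second quantification these copies held 10.9% and 10.8% of the counts of genes and copies together, against 21.6% and 21.8% in the gene table. Pseudogenes that carry the gene's own name with the ending -ps numbered 298, for 60 genes, and held 5.03% and 5.08% in the second quantification, against 11.4% and 11.4% in the gene table.

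The second quantification, deposited as estimated counts per transcript, was made from the reads and an index, whereas the gene table was derived from alignments to the transcriptome. After both were rescaled to one common total over nuclear protein-coding genes, 8 of 81 detected ribosomal protein genes were at least 2-fold higher in the second quantification, against a background of 0.648% of 12660 detected protein-coding genes. Another 2 were at least 2-fold lower, Rpl36 (log2 ratio -1.68) and Rpl19 (-1.53), against a background of 0.845% (1.49% in either direction). Rpl36 had 123 and 119 rescaled TPM in the second quantification, against 400.3 and 380 in the gene table, and Rpl19 had 201 and 206, against 582 and 596. The pseudogene Rpl19-ps11, 99.8% identical to the Rpl19 coding sequence, had 1402 and 1402 counts in the second quantification, against 143 and 133 in the gene table. With its copies Rpl19 had 2510 and 2454 counts in the second quantification, against 4020 and 3942 in the gene table. The next lowest were Rpl17 (-0.80), Rps29 (-0.80) and Rplp1 (-0.69). The median log2 ratio of second quantification to gene table was 0.21 ± 0.030 over the detected ribosomal protein genes and -0.08 ± 0.0022 over detected protein-coding genes.

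**Figure D3:**
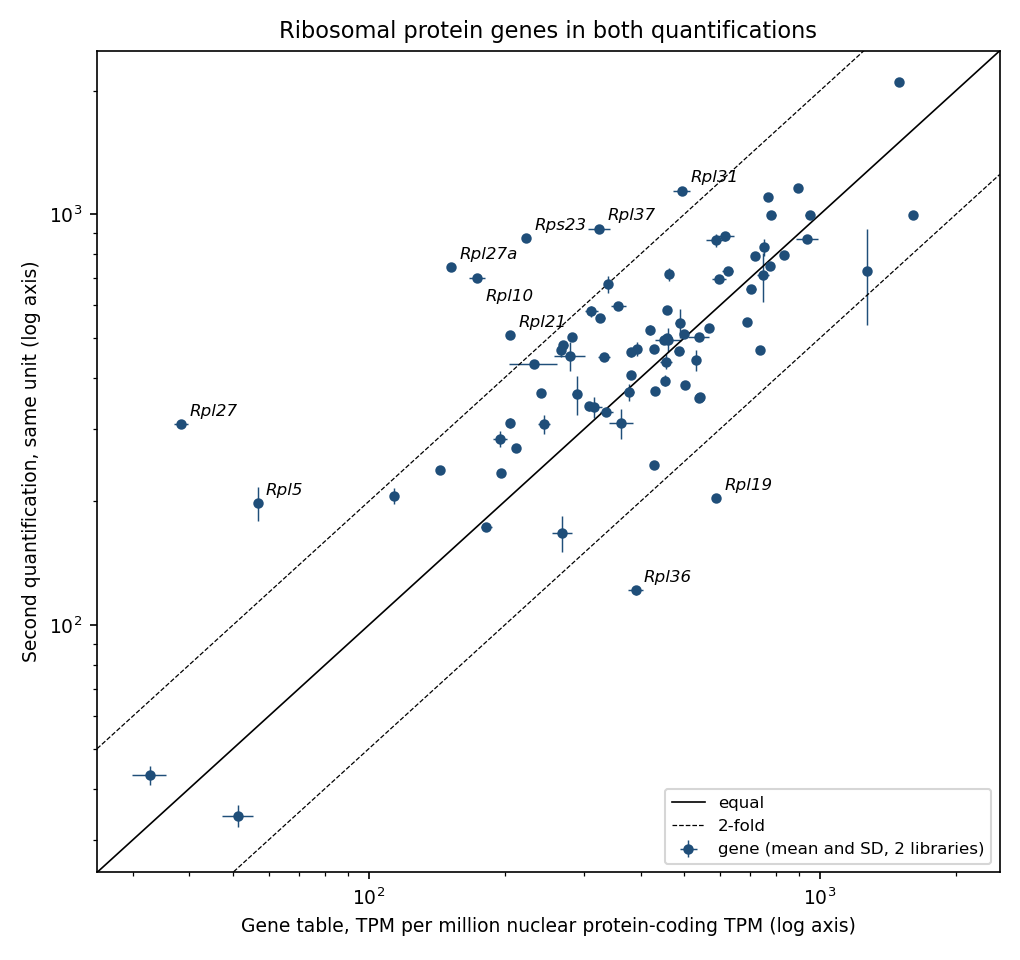
Rescaled TPM of the 81 detected ribosomal protein genes in the second quantification (vertical) and in the gene table (horizontal), mean and SD of 2 libraries, on log axes. The 8 named genes above the upper dashed line are at least 2-fold higher in the second quantification, and Rpl19 and Rpl36 lie below the lower one.

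Rpl27, a protein of the large subunit's solvent side, had the largest gap. It had 309 and 308 rescaled TPM in the second quantification, against 39.4 and 37.5 in the gene table, a log2 ratio of 3.01. In counts this was 1402 and 1297 in the second quantification, against 224 and 195 in the gene table. The pseudogenes Rpl27-ps3 and Gm11518, both with the identical coding sequence, had 0 counts in the second quantification, against 573.5 and 545.3 counts each in the gene table. With its copies Rpl27 had 1402 and 1297 counts in the second quantification, against 1372 and 1287 in the gene table.

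Rpl10 also gained counts as its copy lost them, with 4161 and 3956 counts in the second quantification, against 1293 and 1150 in the gene table. Its identical copy Rpl10-ps3, annotated as protein_coding on chromosome 9, had 0 counts in the second quantification, against 2740 and 2695 in the gene table. Rps23, a protein of the decoding centre, had 3830 and 3601 counts in the second quantification, against 1018 and 978 in the gene table, where Rps23-ps1 on chromosome 3 held 2677 and 2526 counts. Of the Rps23 counts in the second quantification, 3446 and 3242 were in Rps23-203, a transcript annotated as processed_transcript. The protein_coding Rps23-201 had 384 and 359 counts there, against 361 and 348 in the gene table. For Rps23 and Rpl12 the first 60 coding bases are shown with those of their main copy because a read of that stretch matches both alike: no base differs, so none is in capitals. Rps23 lies at chr13:90922958-90924950 (plus strand) and Rps23-ps1 at chr3:37714740-37715164 (plus strand). Rpl12 lies at chr2:32961559-32965345 (plus strand) and Gm10275 at chr10:29698746-29699380 (minus strand).
Rps23: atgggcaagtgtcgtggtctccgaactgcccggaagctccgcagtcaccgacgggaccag
Rps23-ps1: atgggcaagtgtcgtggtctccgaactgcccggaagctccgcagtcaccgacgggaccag
Rpl12: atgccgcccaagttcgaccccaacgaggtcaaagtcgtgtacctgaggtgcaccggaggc
Gm10275: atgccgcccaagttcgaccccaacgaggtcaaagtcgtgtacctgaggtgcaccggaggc

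For other genes both methods left counts in the copy. Gm10275, which holds the Rpl12 coding sequence without a difference, had 1140 and 936 counts in the second quantification, against 1947 and 1782 in the gene table. Gm15500, an identical copy of the Rpl5 coding sequence, had 2363 and 2112 counts in the second quantification, against 3208 and 3086 in the gene table. Rpl5 itself had 1737 and 1827 counts in the second quantification, against 922 and 880 in the gene table, so in both methods the pseudogene held more counts than the gene. Rpl37rt, a transcribed pseudogene of Rpl37, had 718 and 626 counts in the second quantification, against 2156 and 2037 in the gene table. Gm7536, a copy of Rpl27a, had 410 and 385 counts in the second quantification, against 1553 and 1495 in the gene table. Rpl27a itself had 742 and 744 rescaled TPM in the second quantification, against 153 and 151 in the gene table (log2 ratio 2.29). The remaining genes at least 2-fold higher were Rpl37 (log2 ratio 1.51), Rpl21 (1.30) and Rpl31 (1.21). Among copies of Rpl21, the gene table gave Gm10240 and Gm13370 496 counts each in replicate 1, against 0 in replicate 2, and gave Gm10163 817 counts, against 1567.

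**Figure D4:**
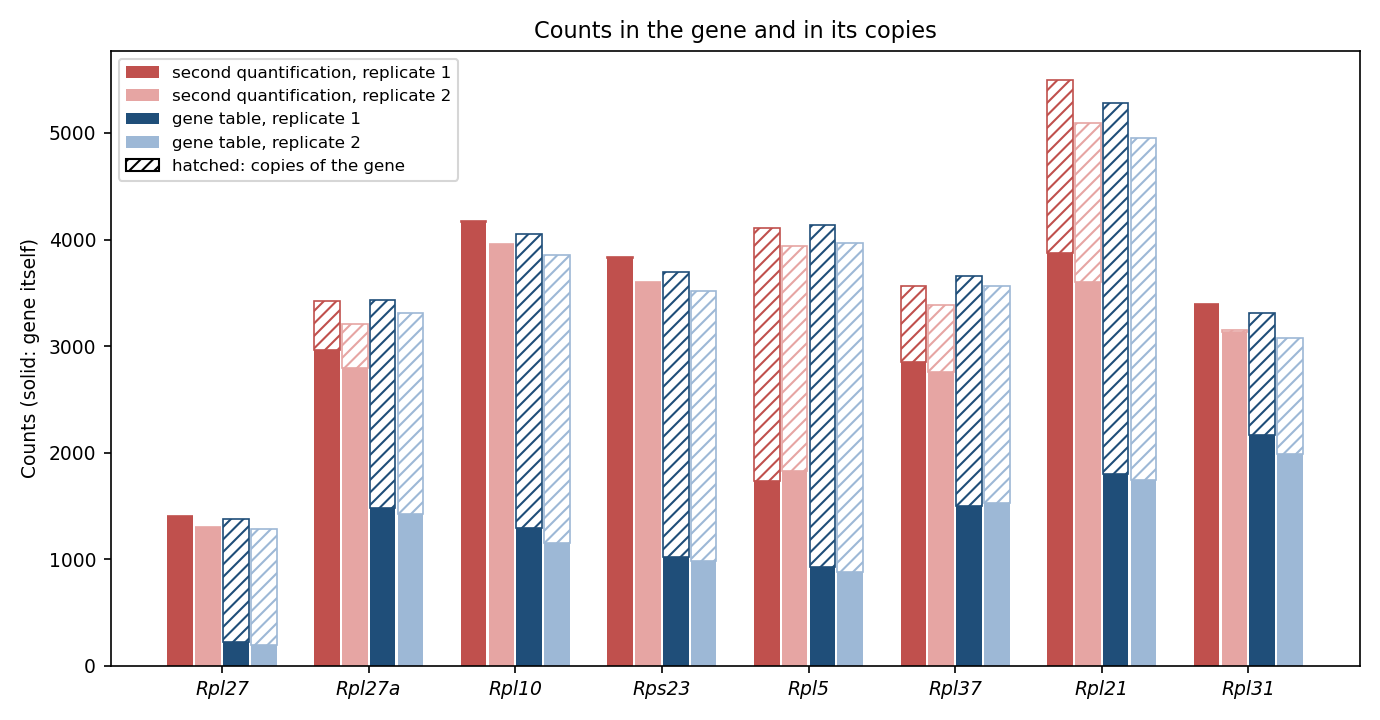
Counts assigned to each of the 8 genes (solid) and to their sequence copies (hatched) in the second quantification (red, left bars) and the gene table (blue, right bars), replicate 1 before replicate 2. The full bars are of nearly equal height in both quantifications, while the solid part is taller in the second.

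Summing a gene with its copies brought the quantifications together at the high side. Alone, 5 of the 80 genes had at least 2-fold more counts in the second quantification in each library, and 5 had at least 2-fold fewer. With copies added, 0 of 80 had at least 2-fold more, and 4 in replicate 1 and 5 in replicate 2 had at least 2-fold fewer. Those lower with copies in both libraries were Rps29, Rps21, Rpl36 and Rplp1, joined in replicate 2 by Rps28.

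Posterior SDs deposited with the gene table measure how far a count could move among ambiguous reads within one method. Relative to the posterior mean count they reached 0.1 in at least 1 library for 2 of 80 genes, against a background of 0.53% of 10951 protein-coding genes. These were Rpl10 (0.106 in replicate 1 and 0.108 in replicate 2) and Rps12 (0.119 and 0.0894). Next were Rpl27 (0.0798 and 0.0982), Rpl36a (0.0441 and 0.0506), Rpl12 (0.0361 and 0.0401), Rpl11 (0.0333 and 0.0352), Rpl5 (0.0338 and 0.0347) and Rpl31 (0.0323 and 0.0299). A mean over 1% was seen in 38 of 80 ribosomal protein genes (47.5%) and in 4.58% of protein-coding genes. The posterior SD of Rpl10 was 138 and 126 counts, far less than the gap between its quantifications given above.

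In the gene table, the genes with the most counts in -ps pseudogenes were Rps2, Rpl3, Rpl10, Rps23 and Rpl28. In the second quantification Rpl3 came first, followed by Rps2 and Rpl19. The 11 pseudogenes of Rps2 had 3028 and 2931 counts in the second quantification, against 4241 and 4255 in the gene table, and those of Rpl3 had 4058 and 3751, against 3977 and 3837. For these genes the copies therefore kept most of their counts in both methods. The 4 pseudogenes of Rpl28 held 1.047 and 3.002 counts in the second quantification, against 1751 and 1582 in the gene table. Outside the 84 genes, the excluded pseudogene Rps3a2 had 546 and 489 counts in the second quantification, against 1429 and 1425 in the gene table, while Rps4l, an intron-less relative of Rps4x, had 140 and 163, against 175 and 215.

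At the transcript level, the median gene had 96.3% of its TPM in protein_coding transcripts in replicate 1 and 97.0% in replicate 2. The second quantification gave 94.0% and 93.9%. Of 81 detected genes, 15 were below 50% in the gene table's transcript shares and 23 in the second quantification, 10 of them in both. No background over other protein-coding genes is given for these counts, so they are not shown to be particular to this family. Lowest in the gene table's shares were Rps26 (2.34% in replicate 1 and 2.23% in replicate 2), Rps16 (2.12% and 3.16%), Rpl35 (3.77% and 2.63%), Rps20 (4.94% and 4.75%) and Rps18 (13.7% and 3.57%). For Rps26 the second quantification gave 65.1% and 58.4%, and for Rps18 it gave 3.74% and 56.3%, so the share moved between libraries as well as between methods.

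**Figure D5:**
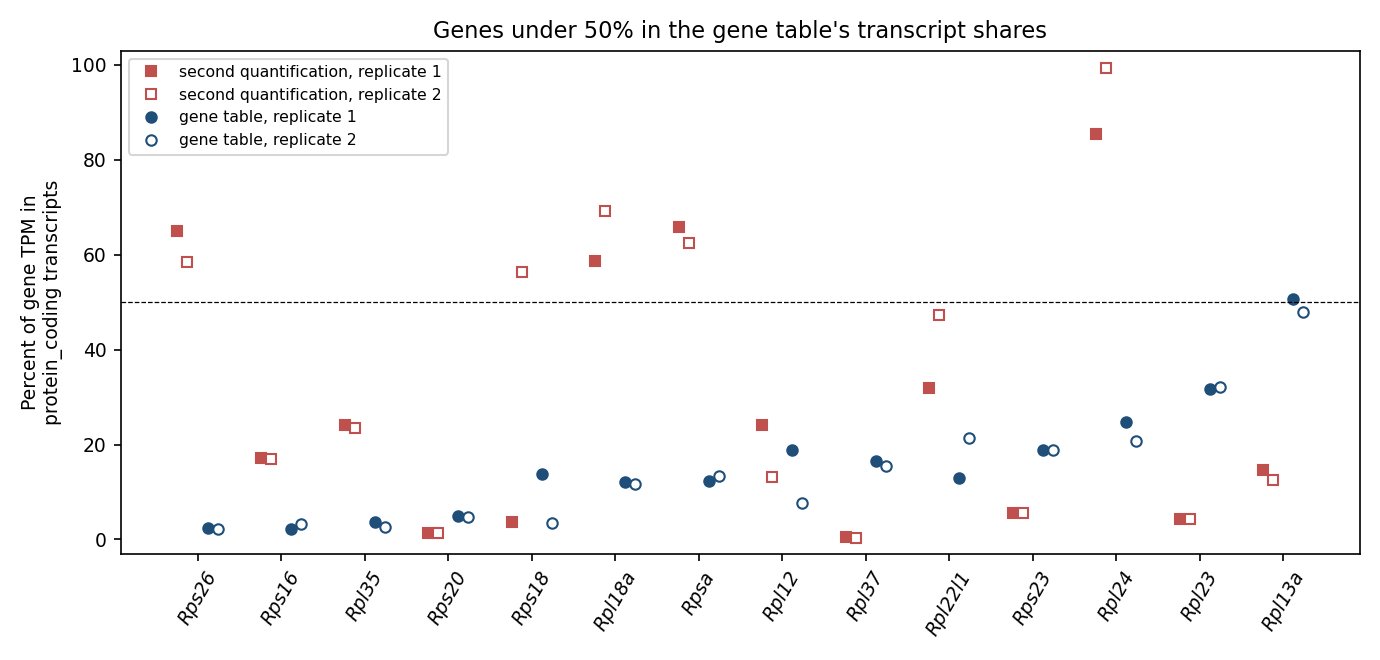
Percent of the gene's TPM in protein_coding transcripts for 14 of the 15 genes below 50% in the gene table's shares (mean of 2 libraries), in the second quantification (squares) and the gene table (circles), with replicate 1 filled and replicate 2 open. Rpl24 is at 85.4% and 99.3% in the second quantification and at 24.7% and 20.7% in the gene table, while Rps20 is below 10% in both.

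The leading transcripts of these 15 genes were of the types retained_intron, processed_transcript or nonsense_mediated_decay, but most of their sequence was shared with coding transcripts of the same gene. Rps26-202, a retained_intron transcript of 596 bases, contained 99.4% of the 31-base words of the Rps26 coding sequence, and Rps20-201 contained 99.4% of those of Rps20. Across the 15, between 57.2% and 94.9% of the transcript's own words also occurred in a coding transcript. The same leading transcript was named by both methods for 37 of 81 detected genes, again with no background over other genes.

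Ribosomal protein genes lie on 19 chromosomes, with 14 on chromosome 7, 8 on chromosome 17 and 4 on the X chromosome. Their introns are known as hosts of small nucleolar RNAs, which guide the modification of ribosomal RNA. By annotation, 30 of 84 genes (35.7%) contained 58 small nucleolar RNAs on the same strand, against 1.92% of detected protein-coding genes, and Rpl4 held the most, 5. Just 9 of these small RNAs were detected by the 1 TPM threshold. The highest by counts were Gm26448 within Rpsa, with 492 counts in replicate 1 and 408 in replicate 2, and Snord15b within Rps3, with 349 and 279 counts. At 23 of the 84 genes another gene overlapped on the opposite strand, among them Rpl3 (Syngr1, with 14186 and 14626 counts). No share of other genes with such an overlap is given. Whether counting used strand is not given in the sources used here, so reads in such overlaps cannot be assigned with certainty.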

How the data were processed

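Total RNA-seq of mouse hippocampus was available from 2 libraries of 1 group. Per the file headers and the labels, the authors deposited, on mm10 and GENCODE M21, gene and transcript tables with expected counts, TPM, the percent of gene TPM per transcript and a posterior SD of the count (used as a score), derived from alignments to the transcriptome, and a second table of estimated counts and TPM per transcript made from the reads. Which tools and versions made them is not given in the sources used. Reads from CAST/EiJ alleles were assigned on a C57BL/6J assembly. Expected counts were rounded before scaling. Log2 ratios of replicate 1 to replicate 2 used edgeR 4.0.16 TMM factors with a prior count of 0.5. Intervals are exact Clopper-Pearson intervals at 95%, and, like the floor of 3 counts, cover counting error only. Second-table values were summed per gene. Both TPM sets were rescaled over nuclear protein-coding genes where compared. Copies were found with blastn 2.17.0 using the longest complete coding sequence of each gene. The ratio step, tested on simulated data for replicate 1 over replicate 2 (11411 genes), called 50 of 50 genes at 2-fold and 188 of 11212 unchanged genes at a log2 ratio of 0.32. The libraries differed beyond sampling noise (chi-square of 7.80 per degree of freedom over 19816 genes) and were kept as 2 replicates. Members, gene lists and tests were chosen with earlier results of these data known. Named genes were the 10 highest and 10 lowest by TPM, the paralog pairs, the stalk genes, and the extremes of each measure (5 each way between replicates and between quantifications, 8 by posterior SD, 5 by protein_coding share, 5 by pseudogene counts). Coding-sequence identity took the place of the planned protein identity. Alternatives are given in the closing section. Results of some single genes are not reported here.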

Additional observations from a re-analysis of the deposited data

How the results depend on the processing

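Of 78 alternatives run on the main results, 29 moved the result. The other 49 left the value within the spread between libraries or the count within 1.5 times. This tally is no measure of robustness, because some alternatives could not move a value. Leaving out 1 of the 2 libraries always leaves a mean of both within their SD, and rescaling leaves a ratio of medians as it was. The number of detected genes was 81 under all 6 alternatives, from minimum TPM 0.1 to 10. The median of 169 TPM was 339 in the second quantification, 407 after rescaling over protein-coding genes, 65.4 as CPM, 178 over detected members, and 131 or 121 as a log-scale mean with pseudocount 1 or 0.1. The fold of 11.6 over detected genes was 15.6 in the second quantification, 2.74 as CPM, 16.5 with genes at a mean TPM of 0.1 or more, and 54.3 with no filter. The share of 0.614% of counts was 0.626% in the second quantification and 0.782% of protein-coding counts. The large to small subunit log2 ratio of -0.33 was -0.026 in the second quantification, -0.24 as CPM, -0.21 over canonical genes and -0.70 as a mean of log2(TPM + 1). The count of 0 genes differing by a log2 ratio of 0.32 between libraries was 1 with ERCC scaling (Rps12), 1 with no filter (Rpl3l) and 1 in the second quantification (Rps29), and the median log2 ratio of 0.01 was 0.19 with ERCC scaling and -0.01 with total counts. The 2 genes at a relative posterior SD of 0.1 became 4 at 0.05 and 0 at 0.2, and ranged from 1 to 2 when a library was left out. The 10 genes differing 2-fold between quantifications became 41 without rescaling and 31 at 1.5-fold. The median protein_coding share of 96.6% was 94.0% in the second quantification and 75.4% for the leading transcript alone, and the share of named pseudogenes of 11.4% was 5.06% in the second quantification. In 1 pair the paralog was above its canonical gene in both libraries; leaving out a library gave 1 to 2, and the second quantification also gave 1, but Rpl22l1 and Rpl22 in place of Rpl36al and Rpl36a. The cause of these changes was not tested, except that filters, thresholds and units change a value by construction. No paired analysis was possible because there was 1 group. With 2 libraries, small differences between them cannot be told from preparation. For genes with near-identical copies, the part played by the division of shared reads was not tested.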

Other observations

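Among the 29 other genes of translation, the ubiquitous elongation factor Eef1a1 and its neuron- and muscle-enriched paralog Eef1a2 were both abundant. Eef1a2 had 470 TPM in replicate 1 and 508 TPM in replicate 2, and Eef1a1 had 1265 and 1316 TPM. Eif4a2, the initiation helicase prominent in brain, had 365 and 371 TPM, above its paralog Eif4a1 at 141 and 138 TPM. In the second quantification Eif4a2 had 646 and 587 TPM and Eif4a1 437 and 437 TPM, so the order was kept while the gap was smaller. Tpt1, whose messenger RNA also starts with a pyrimidine tract, had 360 and 376 TPM, and Eef2, the translocase, had 358 and 374 TPM, both above the ribosomal protein median of 165.8 and 172.7 TPM.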
